A study of Mus musculus with 221 samples.

Results

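The kinesins examined here are the 45 rows of the expression table, of 23244 in all, whose symbols name a kinesin motor, a kinesin light chain (Klc) or the kinesin-2 accessory subunit Kifap3. They were chosen by name, without use of their values, although earlier results of these data were known. The data are single-cell transcriptomes of microdissected medial neocortex from C57BL/6J mouse embryos at E18.5, labelled as female. The 221 cells came from 2 pools of 8 neocortices each, 99 of them from pool 2, and were captured on a microfluidic chip (Fluidigm C1). The labels name no treatment, transgene or deletion, and no embryo for a cell, so cell classes of the same pools are set against each other.

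Kinesins walk along microtubules, or take them apart, by burning ATP. In a dividing cell, one set builds the spindle, moves chromosomes and carries cytokinesis factors to the spindle midzone. In a neuron, which no longer divides, another set carries vesicles, mitochondria and RNA down the axon and into dendrites. At this age the neocortex holds both kinds of cell, progenitors that still divide near the ventricle and neurons that have left the cell cycle.

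By textbook role, 13 of the 45 are mitotic kinesins, 24 are cargo and axonal kinesins with their light chains and accessory subunit, and 8 have other roles, in cilia, Hedgehog signalling or microtubule disassembly. In every cell the lowest value is shared by a great many genes, and a gene counts as detected where it exceeds that lowest value, which lay between 1.33 and 2.998 TPM (a share of the transcripts of a cell, scaled for transcript length). At least 10 cells detected 30 kinesins, namely 10 mitotic, 19 cargo and axonal, and Kif2a. The other 15 were detected in fewer cells, and 3 of them, Kif12, Kif17 and Kif2b, in 0 of 221.

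Cells were sorted into classes by marker transcripts. A progenitor detects at least 5 of 12 progenitor markers (such as Sox2, Pax6, Hes1 and Eomes) and more of them than of 8 excitatory neuron markers. Progenitors were split by Mki67, a transcript of dividing cells, into 17 Mki67-positive (5 in pool 1 and 12 in pool 2) and 24 Mki67-negative (13 and 11). Neurons were gated among the other cells, and only where Mki67 was at the lowest value, so neither neuronal class holds a cell with Mki67. Interneuron-like cells detect at least 3 of 6 interneuron markers and numbered 26 (16 in pool 1 and 10 in pool 2). Excitatory neuron-like cells detect at least 4 of 8 excitatory markers and numbered 141 (81 and 60). The remaining 13 cells stayed ungated, and 8 of them had Mki67 and at least 4 excitatory markers. The median progenitor marker count was 10 in Mki67-positive progenitors, 8.5 in Mki67-negative progenitors and 2 in excitatory neuron-like cells. The progenitors also detected a median of 4 excitatory markers in either class, against 6 in excitatory neuron-like cells.

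The number of genes detected per cell ranged from 2146 to 6727, and its class medians were 4792 in Mki67-positive progenitors, 4291 in Mki67-negative progenitors, 4037 in excitatory neuron-like cells and 3367 in interneuron-like cells. Of the 17 Mki67-positive progenitors, 15 carry the letter A in their names and 2 the letter B, against 77 and 64 of the excitatory neuron-like cells. The labels do not say what the letter marks. Their part in the differences below was not tested beyond the narrower sets of cells given beside them. Among markers of other cell types, at least 2 of 4 oligodendrocyte precursor markers were detected in 4 of 17 Mki67-positive and 6 of 24 Mki67-negative progenitors and in 0 excitatory neuron-like cells. Their summed level reached 1711, 2229 and 347 TPM in these classes. At least 2 of 5 microglia markers were detected in 1 Mki67-negative progenitor, where they summed to 8815 TPM, and at least 2 of 3 red blood cell markers in 10 excitatory neuron-like cells and 1 Mki67-negative progenitor. No cell detected 2 endothelial or 2 mural markers. The part of these cells in the differences was not tested.

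The promoters of the mitotic kinesins are shown first, because many share letters that most promoter windows lack. A relation of these letters to the differences between cell classes was not tested. The cell cycle genes homology region (CHR, TTTGAA) and the CCAAT box are promoter elements known from genes of the G2 and M phases. Windows of 300 bases, from 250 before to 50 after the start site, came from RefSeq (GRCm38.p6) for 12 of the 13 mitotic kinesins, all but Kif20a. The 12 include Kif14, Kif24 and Kifc1, which were detected in too few cells for the main test. Both strands were searched. The CHR letters stand in 83.3% of these 12 windows, in 10.5% of 19 windows of 17 cargo and axonal kinesins, and in 17.9% of all 32851 windows in the table. Of the 10 mitotic windows with a match, those of Kif14 and Kif2c belong to inner start sites, 1505 and 3867 bases inside the gene as GENCODE draws it. Of the 2 cargo windows with a match, one belongs to a start site of Kif1a 19471 bases inside its gene. The CCAAT letters stand in 66.7%, 42.1% and 37.4%, and both motifs in 58.3%, 5.26% and 6.95%. Matches to the 2 motifs can share at most 1 base, and a match is a description of the sequence only. Of the 5 windows below, the first is that of the mitotic kinesin with the largest difference, followed by the spindle motor Kif11, the midzone motor Kif23 and Kif18a, a mitotic kinesin with neither motif. The last is the neuronal heavy chain Kif5c. They read 5′ to 3′ on the strand of the gene, with matches to either motif on either strand in capitals.
Kif22: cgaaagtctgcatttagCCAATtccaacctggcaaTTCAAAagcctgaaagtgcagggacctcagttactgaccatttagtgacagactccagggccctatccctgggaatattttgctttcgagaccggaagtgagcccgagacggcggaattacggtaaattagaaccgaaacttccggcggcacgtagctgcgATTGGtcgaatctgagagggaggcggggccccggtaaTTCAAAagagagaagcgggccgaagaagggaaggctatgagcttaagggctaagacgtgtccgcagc
Kif11: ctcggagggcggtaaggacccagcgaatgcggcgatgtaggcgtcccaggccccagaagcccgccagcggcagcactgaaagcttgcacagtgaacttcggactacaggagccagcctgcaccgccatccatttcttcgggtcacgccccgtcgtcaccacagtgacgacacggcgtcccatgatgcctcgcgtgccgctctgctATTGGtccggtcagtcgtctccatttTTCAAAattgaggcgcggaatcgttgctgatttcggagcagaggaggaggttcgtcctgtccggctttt
Kif23: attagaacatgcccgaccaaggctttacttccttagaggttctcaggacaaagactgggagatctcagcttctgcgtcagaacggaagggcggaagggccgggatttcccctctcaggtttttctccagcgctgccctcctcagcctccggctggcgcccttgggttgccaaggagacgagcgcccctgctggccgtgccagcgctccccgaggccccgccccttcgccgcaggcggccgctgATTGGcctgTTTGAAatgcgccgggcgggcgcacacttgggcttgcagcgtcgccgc
Kif18a: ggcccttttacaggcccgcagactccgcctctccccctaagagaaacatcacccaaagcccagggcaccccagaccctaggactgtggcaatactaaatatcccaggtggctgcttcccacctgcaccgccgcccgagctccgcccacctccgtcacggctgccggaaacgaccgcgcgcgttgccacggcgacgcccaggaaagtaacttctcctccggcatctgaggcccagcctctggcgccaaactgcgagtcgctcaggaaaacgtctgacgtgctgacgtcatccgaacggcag
Kif5c: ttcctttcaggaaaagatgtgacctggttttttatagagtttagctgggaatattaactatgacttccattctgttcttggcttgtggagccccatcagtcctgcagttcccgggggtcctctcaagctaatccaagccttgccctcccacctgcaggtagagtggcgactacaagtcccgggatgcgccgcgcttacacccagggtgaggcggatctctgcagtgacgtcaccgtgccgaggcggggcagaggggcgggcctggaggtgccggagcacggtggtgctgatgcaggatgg

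The Kif22 window lies at chr7:127042371-127042670 on the minus strand and holds 2 CHR and 2 CCAAT matches, the nearest to the start site beginning at -17 and -54. In the Kif11 window (chr19:37376132-37376431, plus strand) the matches begin at -19 and -45. In the Kif23 window (chr9:61946750-61947049, minus strand) they begin at 3 and -7, so that they flank the start site. The Kif18a window (chr2:109280488-109280787, plus strand) and the Kif5c window (chr2:49619036-49619335, plus strand) hold neither. Of the 12 mitotic windows, the other one without a CHR match is that of Kif24.

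The tested mitotic kinesins were far more abundant in Mki67-positive progenitors than in excitatory neuron-like cells. The gate required Mki67 in the first class and Mki67 at the lowest value in the second. A higher level of mitotic genes is thus partly built into this comparison. Of the 13 mitotic kinesins, 10 were detected in enough cells to be tested. Each of these 10 passed as higher, by 1.88 to 4.93 on the log2 scale. None of the 19 cargo and axonal kinesins tested passed in either direction, and neither did Kif2a, listed under other roles. Of all 10719 genes tested, 2.40% passed as higher and 0.438% as lower. The median difference was 2.67 for the tested mitotic kinesins, -0.25 for the tested cargo and axonal kinesins and 0.04 for all genes. A gene detected in few cells overall reached the minimum of 10 cells mostly through the class where it is high, so the count of 10 describes the tested genes and not the whole list. Differences are means of log2(TPM + 1) over cells, per class and pool (n = 2 pools per class), tested with limma over 4 classes. P-values are adjusted over all genes by Benjamini-Hochberg. The SE of a gene uses 1 spread shared by the 4 classes. Where the other classes lie near the lowest value, it can understate the spread between pools of Mki67-positive progenitors. A gene passed at an adjusted p below 0.05 and a difference of at least 1 in size.

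**Figure D1:**
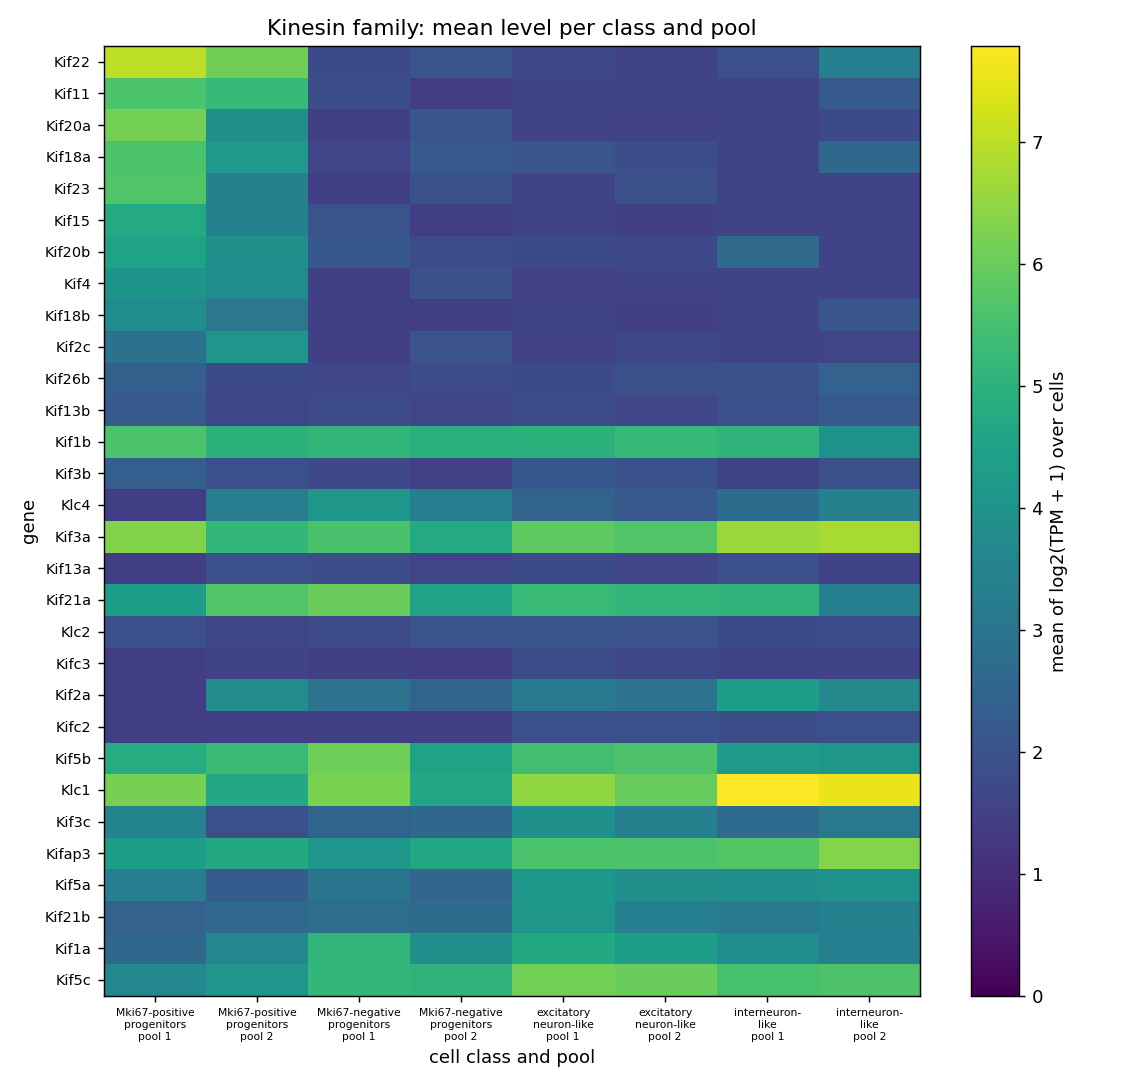
Mean of log2(TPM + 1) over cells (color) for the 30 kinesins detected in at least 10 cells, one row per gene, in the 4 cell classes of each pool (columns). Genes are ordered by their difference between Mki67-positive progenitors and excitatory neuron-like cells; the top 10 rows are the tested mitotic kinesins, bright in the first 2 columns, and Kif5c is the bottom row.

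The chromosome-bound motors come first. Kif22, which sits on chromosome arms and pushes them toward the spindle equator, had the highest mean level of any kinesin in Mki67-positive progenitors. The mean was 302 TPM in pool 1 and 271 TPM in pool 2, with single cells from 1.57 to 1272 TPM (median 237). In excitatory neuron-like cells its means were 4.59 and 2.13 TPM, far below, and 8 of 141 cells detected it against 14 of 17. The log2 difference was 4.93 ± 0.61 (SE; adjusted p = 0.00171), with 5.33 in pool 1 and 4.54 in pool 2. Kif4, the other chromosome-bound motor, also sets microtubule length at the midzone together with Prc1. Its means were 66.9 and 43.2 TPM in Mki67-positive progenitors and 1.88 and 4.84 TPM in excitatory neuron-like cells, a difference of 2.33 ± 0.36 (adjusted p = 0.00437). It was detected in 10 of 17 and 2 of 141 cells, and the 2 excitatory neuron-like cells were both in pool 2.

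Kif11 and Kif15 push the spindle poles apart and keep it bipolar. Kif11 had means of 137 and 99.8 TPM in Mki67-positive progenitors, and 2.63 and 3.59 TPM in excitatory neuron-like cells. It was detected in 82.4% of Mki67-positive progenitors (14 of 17; exact Clopper-Pearson 95% interval 56.6 to 96.2%; such intervals cover counting error over cells only) and in 3.55% of excitatory neuron-like cells (1.16 to 8.08%). The difference was 3.80 ± 0.46 (adjusted p = 0.00158), and the pools gave 4.004 and 3.60, close to each other. Kif15, the helper of Kif11, had means of 66.2 and 24.7 TPM against 2.48 and 1.80 TPM, and differed by 2.56 ± 0.46 (adjusted p = 0.0118). Its difference was 3.19 in pool 1 and 1.94 in pool 2.

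The regulators of microtubule ends are Kif18a, which damps the swinging of chromosomes at the equator, Kif18b, which trims astral microtubules, and Kif2c, which takes microtubules apart at centromeres. Kif18a had means of 133 and 114.6 TPM in Mki67-positive progenitors and 13.1 and 11.4 TPM in excitatory neuron-like cells, a difference of 2.92 ± 0.58 (adjusted p = 0.0200). The difference of Kif18a was 3.54 in pool 1 and 2.30 in pool 2. It was the mitotic kinesin detected in the most excitatory neuron-like cells, 14 of 141 (9.93%, interval 5.54 to 16.1%), with up to 307 TPM in a cell. Kif18b had means of 84.2 and 47.5 TPM against 2.86 and 1.81 TPM, and a difference of 1.90 ± 0.36 (adjusted p = 0.0142), although 6 of 17 Mki67-positive progenitors detected it. Among the 10, Kif2c alone was higher in pool 2 than in pool 1. Its means were 29.6 and 90.1 TPM in Mki67-positive progenitors and 1.88 and 7.72 TPM in excitatory neuron-like cells, with a difference of 1.88 ± 0.41 (adjusted p = 0.0294).

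The cytokinesis motors are Kif20a, which brings the chromosomal passenger complex to the midzone, Kif23, which bundles midzone microtubules as part of centralspindlin, and Kif20b, which acts in the final cut between daughter cells of cortical progenitors. Kif20a had means of 198 and 78.96 TPM in Mki67-positive progenitors and 3.83 and 1.87 TPM in excitatory neuron-like cells, a difference of 3.47 ± 0.63 (adjusted p = 0.0119). Kif23 had means of 125 and 86.4 TPM against 2.56 and 11.8 TPM, a difference of 2.78 ± 0.61 (adjusted p = 0.0304). Both leaned on pool 1, and the difference was larger in pool 1 for every tested mitotic kinesin but Kif2c. There, 4 of 5 Mki67-positive progenitors detected each of these genes, against 5 and 4 of 12 in pool 2. The pool differences were 4.56 and 2.38 for Kif20a, and 4.07 and 1.496 for Kif23. These lie far apart beside the SE, which shares the spread of the other classes. Kif20b had means of 69.1 and 42.2 TPM against 4.45 and 4.70 TPM, a difference of 2.47 ± 0.49 (adjusted p = 0.0199).

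The 3 mitotic kinesins below 10 cells were Kif14, Kif24 and Kifc1. Kif14, a motor of cytokinesis, was detected in 4 of 17 Mki67-positive progenitors, in 2 ungated cells and in 0 cells of the other classes, at up to 21.5 TPM. In a fit without the filter on low values its difference was 0.51 ± 0.14 (adjusted p = 0.142), below the size required. Kif24, a centriolar kinesin, was detected in 8 cells spread over 4 of the 5 groups. Kifc1, the minus-end motor that bundles spindle poles, was detected in 2 cells, with a highest value of 4.60 TPM. A gene of near-identical sequence, Kifc5b, has its own row and was detected in 5 cells at up to 35.3 TPM, so reads of this pair may have been divided between the rows and the low Kifc1 level is uncertain. The row of the Kif4 pseudogene was at the lowest value in every cell.

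**Figure D2:**
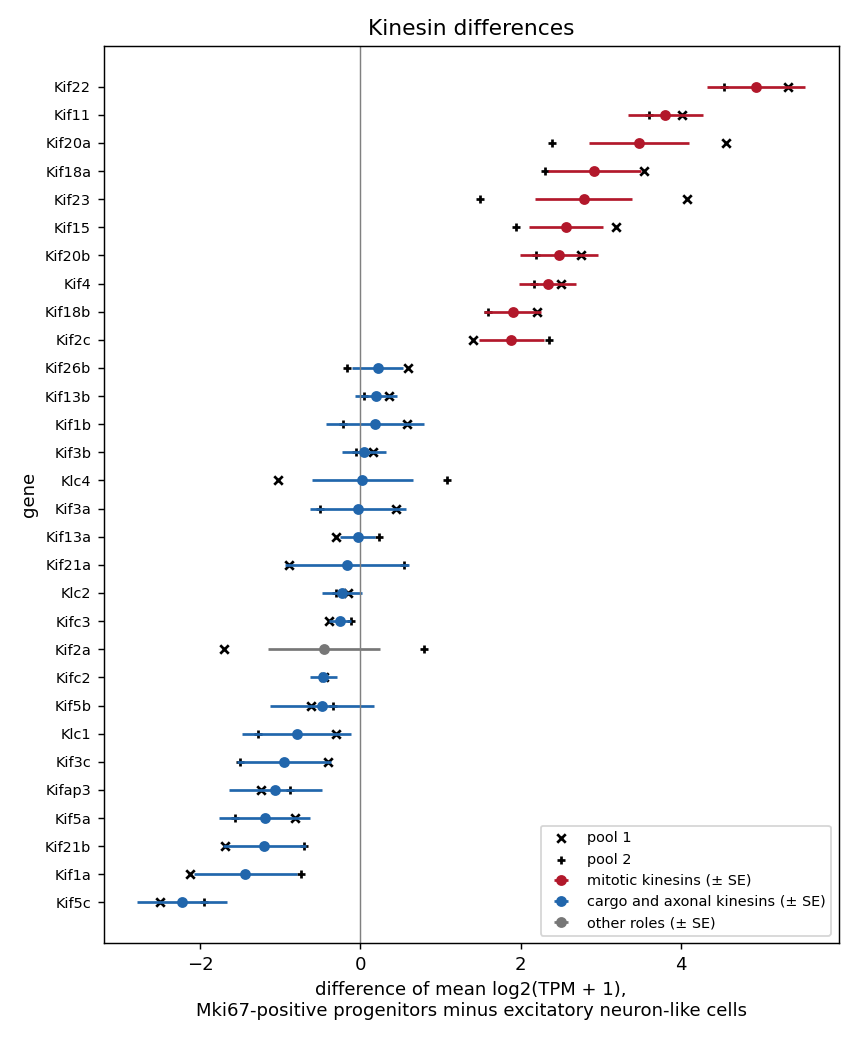
Log2 difference (mean log2(TPM + 1) in Mki67-positive progenitors minus that in excitatory neuron-like cells) for the 30 tested kinesins; dots with bars are the limma estimate ± SE and crosses the 2 pools. The 10 mitotic kinesins lie between 1.88 and 4.93 and exceed 1 in both pools, and the other 20 between -2.22 and 0.21.

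The number of kinesins that passed depended on the cells compared and on the scale and filter. With the same cells it was 2 with the log2 of the mean TPM, 6 without the filter on low values and 3 with a filter at 30 cells. Of the 10, only Kif18a, Kif22 and Kif20b were detected in at least 30 cells and so tested at that last filter. With the 8 Mki67-positive ungated cells kept in the excitatory neuron-like class, which then held 149 cells, 10 passed as well, with Kif22 at 4.85 ± 0.62 (adjusted p = 0.00196). When only cells with 3000 to 5500 detected genes were kept, which left 7 Mki67-positive progenitors in one pool and 5 in the other, 0 of the kinesins passed. The difference was then 4.21 ± 0.78 for Kif22 (adjusted p = 0.0572) and 3.05 ± 0.62 for Kif11 (adjusted p = 0.0687), and 37 of all genes passed in place of 304. The Mki67-positive progenitors left out were all from pool 2, and each detected at least 4 mitotic kinesins. Those with at most 2 had 4164 to 4792 detected genes and all stayed, so this filter also changed the mix of the class. With letter A cells alone 2 kinesins passed. In these fits, and in each other alternative in which they were tested, the 10 differences stayed above 0.

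Several of the same motors differed between Mki67-positive and Mki67-negative progenitors. These classes were split by Mki67, a transcript of dividing cells, so a higher level of mitotic genes in the positive class is partly built into the split. Against Mki67-negative progenitors, 7 mitotic kinesins were higher in Mki67-positive progenitors and 0 other kinesins passed, where 0.970% of all genes passed as higher and 0.0373% as lower. Kif22 had means of 3.53 and 29.7 TPM in Mki67-negative progenitors and differed by 4.67 ± 0.61 (adjusted p = 0.00467). Kif11, at 7.41 and 1.68 TPM there, differed by 3.76 ± 0.46 (adjusted p = 0.00467). The others were Kif20a (3.23), Kif18a (2.97), Kif15 (2.36), Kif4 (2.197) and Kif18b (1.97), with adjusted p-values from 0.0107 to 0.0302. Kif23 (2.83, adjusted p = 0.0515), Kif20b (2.23, adjusted p = 0.0602) and Kif2c (1.76, adjusted p = 0.0812) missed the threshold. With the pool as a block in the fit 10 kinesins passed. The number fell to 3 with at least 6 progenitor markers, 2 with letter A cells, 0 with the log2 of the mean TPM and 0 in cells with 3000 to 5500 detected genes. Kif15 passed in 9 of 17 alternatives and Kif18a in 9 of 18. Both comparisons use the same Mki67-positive progenitors, so they are not independent.

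Mki67-negative progenitors and excitatory neuron-like cells were compared directly as well. None of the 30 kinesins passed, and 0.0560% of all genes did; at an unadjusted p below 0.05 limma gave 2 of the 30 kinesins, and 0 of the mitotic ones, against 9.37% of all genes. Kif11 was detected in 1 of 24 Mki67-negative progenitors and 5 of 141 excitatory neuron-like cells, and Kif22 in 2 of 24 and 8 of 141. These are counts of cells from 2 pools, given without a test, and a difference too small for 2 pools to show remains possible.

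The mitotic kinesins were not spread evenly over the Mki67-positive progenitors. Of the 13, these cells detected a median of 8 (lowest 0, highest 11), against 0.5 (0 to 5) in Mki67-negative progenitors, 0 (0 to 4) in excitatory neuron-like cells and 0 (0 to 3) in interneuron-like cells. The pool medians were 9 and 5. In 12 cells at least 4 mitotic kinesins were detected together, and in the other 5 at most 2. The 12 cells had 9.55 to 165 TPM of Mki67 and the 5 had 1.78 to 7.40 TPM, so the Mki67 levels did not overlap. The median of the 5 was 2.02 TPM, within the range of the lowest values of cells (1.33 to 2.998 TPM). For some of the 5, the Mki67-positive label thus rests on a value barely above the lowest value of the cell. Top2a, a topoisomerase of dividing cells, was detected in 11 of the 12 and 2 of the 5. The median number of detected genes was 5184.5 in the 12 cells and 4246 in the 5, and the median count of excitatory markers was 4 and 6. These groups were formed from the kinesin counts after their values had been seen, and the values are a description.

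**Figure D3:**
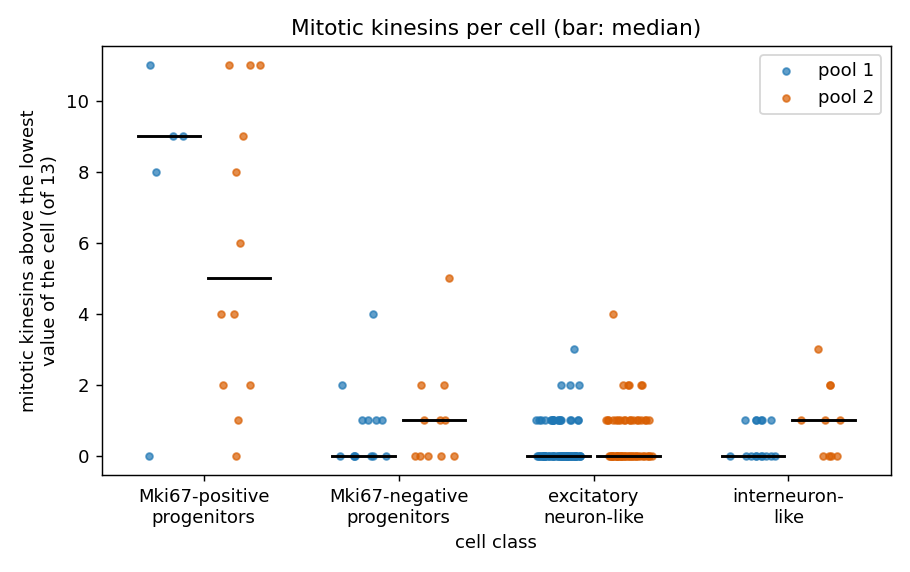
Number of mitotic kinesins, of 13, detected in each cell (y axis) by cell class (x axis) and pool (color); each dot is a cell and the bar is the median of the class in that pool. Mki67-positive progenitors have medians of 9 and 5, and 1 of 141 excitatory neuron-like cells reaches 4.

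Single cells outside the class reached high values of mitotic kinesins. Kif20a stood at 418 TPM in a Mki67-negative progenitor, close to the highest Mki67-positive cell (429 TPM). That progenitor detected 5 mitotic kinesins and had Top2a at 406 TPM. Kif22 stood at 325 TPM in an interneuron-like cell that detected 2 mitotic kinesins. Of the 24 Mki67-negative progenitors, 2 detected at least 4 mitotic kinesins. Of the 141 excitatory neuron-like cells, 94 detected 0, and 139 detected 2 or fewer.

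**Figure D4:**
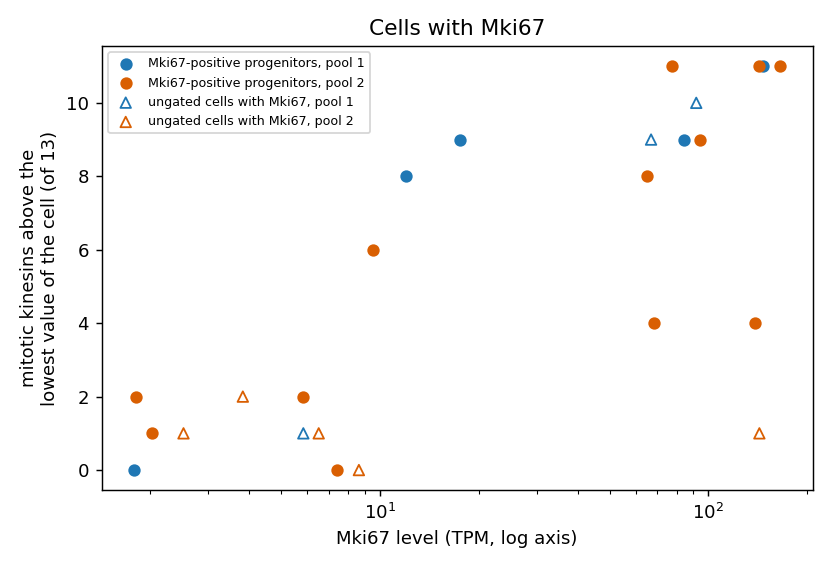
Number of mitotic kinesins detected (y axis, of 13) against the Mki67 level (x axis, TPM, log axis) in the 17 Mki67-positive progenitors (filled circles) and the 8 ungated cells with Mki67 (open triangles), colored by pool. The 5 progenitors with at most 2 mitotic kinesins have Mki67 at 7.40 TPM or less.

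Most of the other spindle and midzone genes that were tested were higher as well. Of 18 listed partners, 17 were tested and 16 were higher in Mki67-positive progenitors than in excitatory neuron-like cells, beside the 2.40% of all genes given above. The largest differences were those of Birc5 (6.38 ± 0.61, adjusted p = 0.00103) and Cdca8 (5.70 ± 0.60, adjusted p = 0.00123), both subunits of the chromosomal passenger complex that Kif20a carries, and of Prc1 (4.87 ± 0.68, adjusted p = 0.00277), the midzone bundler that binds Kif4. The centralspindlin partner of Kif23, Racgap1, differed by 4.53 ± 0.58 (adjusted p = 0.00175). Numa1, which holds spindle poles together and is also nuclear between divisions, did not pass (0.79 ± 0.51, adjusted p = 0.478). Against Mki67-negative progenitors 16 of the 17 passed as higher as well, beside 0.970% of all genes. In cells with 3000 to 5500 detected genes these counts were 6 and 0. The partner left untested, Anln, was detected in fewer than 10 cells. A partner detected in few cells can reach that minimum mostly through the class where it is high, so the counts describe the tested partners only. They come from the same cells sorted by Mki67 as the kinesin counts. A higher level of mitotic genes is thus partly built into them, and they are not independent of the kinesin result.

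Among the tested cargo and axonal kinesins, Kif5c had the most negative difference between Mki67-positive progenitors and excitatory neuron-like cells. It is one of the heavy chains of kinesin-1, the main carrier of fast axonal transport, and is enriched in neurons. Its gene lies on chromosome 2 at 49619298 to 49774778 (GRCm38, plus strand). Excitatory neuron-like cells had means of 99.4 and 89.96 TPM and detected it in 135 of 141 cells. Mki67-positive progenitors had 23.4 and 37.7 TPM and detected it in 11 of 17, and single cells reached 104.6 TPM, above the excitatory median of 76.1. The difference was -2.22 ± 0.56 (-2.50 and -1.95 in the pools), with an adjusted p of 0.0566 and an interval of 2 SE from -3.34 to -1.10. It did not pass, and it passed in 4 of 18 alternatives (adjusted p from 0.0160 to 0.167). Mki67-negative progenitors lay between, at 67.7 and 59.2 TPM. Against those cells, Mki67-positive progenitors differed by -1.26 ± 0.56 (adjusted p = 0.428). Mki67-negative progenitors differed from excitatory neuron-like cells by -0.97 ± 0.56 (adjusted p = 0.669), so neither pair of neighbours in this order passed.

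The other kinesin-1 heavy chains are Kif5b, present in most cell types, and Kif5a, another neuronal form. Kif5b stood at 35.6 and 57.96 TPM in Mki67-positive progenitors and 72.5 and 68.7 TPM in excitatory neuron-like cells, a difference of -0.48 ± 0.64 (adjusted p = 0.769). Kif5a stood at 30.9 and 15.2 TPM against 38.6 and 42.3 TPM, a difference of -1.20 ± 0.57 (adjusted p = 0.324). Neither passed. The mix of the 3 heavy chains is given as a share of their summed mean TPM. Kif5c made up 47.2% and 44.8% of it in the pools of excitatory neuron-like cells, and 26.01% and 33.98% in Mki67-positive progenitors. Kif5b made up 34.4% and 34.2% in the former and 39.6% and 52.3% in the latter. In Mki67-negative progenitors the leading heavy chain differed between pools, Kif5b with 50.1% in pool 1 and Kif5c with 53.6% in pool 2. The summed level was 210 and 201 TPM in excitatory neuron-like cells and 89.9 and 110.8 TPM in Mki67-positive progenitors. Fewer transcripts per cell and a larger total of other transcripts cannot be told apart in TPM.

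**Figure D5:**
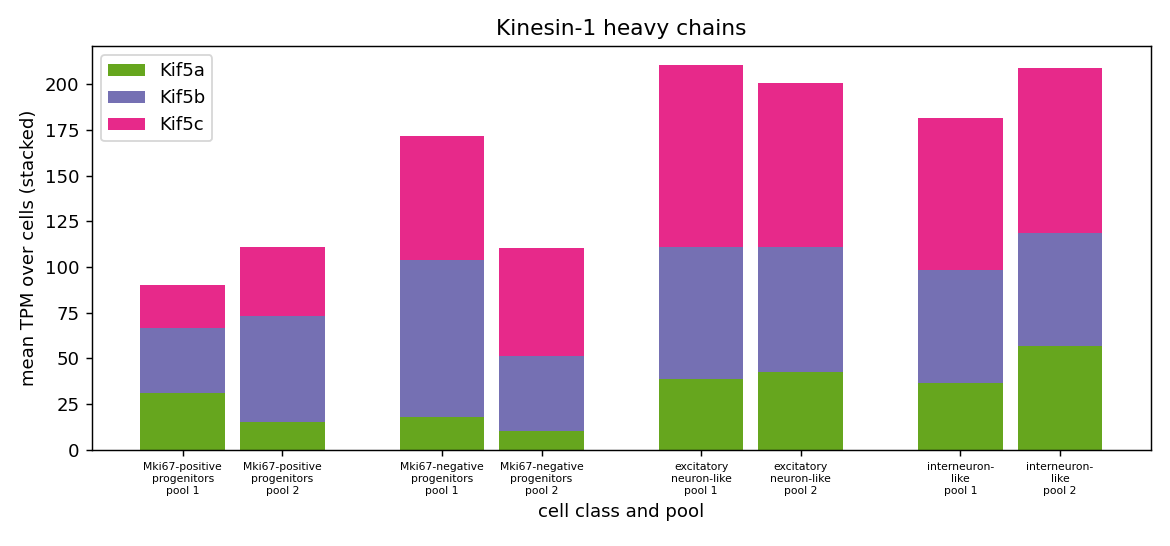
Mean TPM over cells of the kinesin-1 heavy chains Kif5a, Kif5b and Kif5c, stacked, by cell class and pool. The stacks reach 210 and 201 TPM in excitatory neuron-like cells and 89.9 and 110.8 TPM in Mki67-positive progenitors, and the Kif5c segment is the largest in both pools of both neuronal classes.

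Kif1a and Kif1b carry synaptic vesicle precursors and, for Kif1b, mitochondria. Kif1a stood at 10.7 and 29.2 TPM in Mki67-positive progenitors, where 52.9% of cells detected it, and at 45.8 and 30.7 TPM in excitatory neuron-like cells, where 82.98% did. The difference was -1.43 ± 0.65 (adjusted p = 0.299), and the pools disagreed in size, with -2.12 and -0.74. In Mki67-negative progenitors Kif1a was detected in 21 of 24 cells at 42.1 and 34.8 TPM, as high as in excitatory neuron-like cells within the spread of the pools. Kif1b had class means between 49.3 and 56.8 TPM, and its difference was 0.18 ± 0.61 (interval of 2 SE, -1.05 to 1.40).

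The related neuronal motors Kif21a and Kif21b restrain microtubule growth and carry cargo. Kif21a had means of 29.8 and 97.3 TPM in Mki67-positive progenitors, below and above the 58.96 and 65.01 TPM of excitatory neuron-like cells, so the pools pointed in opposite directions (-0.89 and 0.54). Kif21b was at 18.53 and 13.04 TPM against 31.3 and 21.8 TPM, and was detected in 29.4% and 71.6% of these cells. Its difference was -1.20 ± 0.52 (adjusted p = 0.275).

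Kinesin-2 is a complex of Kif3a with Kif3b or Kif3c and the accessory subunit Kifap3, and it works in cilia, which dividing radial glia also bear, and in axons. Kif3a stood at 99.3 and 56.4 TPM in Mki67-positive progenitors and at 92.7 and 84.3 TPM in excitatory neuron-like cells, with a difference of -0.03 ± 0.60 and an interval of 2 SE from -1.22 to 1.16. That interval leaves room for a change of more than 1 in either direction. Kifap3 stood at 44.5 and 61.8 TPM against 97.01 and 95.3 TPM, a difference of -1.06 ± 0.58 (adjusted p = 0.394). It was the kinesin gene detected in the most cells, 211 of 221. Of the partners of Kif3a, Kif3c made up 25.2% and 27.99% of the summed kinesin-2 motor level in excitatory neuron-like cells, and 14.6% and 8.83% in Mki67-positive progenitors. Kif3b stayed under 10 TPM in either pool of excitatory neuron-like cells and differed by 0.05 ± 0.27.

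Light chains link kinesin-1 to cargo. Klc1 had the highest mean of the kinesin genes in Mki67-negative progenitors, excitatory neuron-like cells and interneuron-like cells. Excitatory neuron-like cells had 180 and 182 TPM of it, and interneuron-like cells had 292 and 388 TPM, a difference of 1.44 ± 0.68 (adjusted p = 0.841). Mki67-positive progenitors had 170 and 51.1 TPM, a gap between the pools wider than that of the other classes. Klc4 made up 32.5% and 26.8% of the summed light chain level in Mki67-negative progenitors, and 11.8% and 11.1% in excitatory neuron-like cells. In Mki67-positive progenitors its share was 0.912% in pool 1 and 51.9% in pool 2. Its level was 76.3 and 45.3 TPM in Mki67-negative progenitors against 25.2 and 23.5 TPM in excitatory neuron-like cells, and it was detected in 11 of 24 and 22 of 141 cells. That difference, 1.41 ± 0.63, did not pass (adjusted p = 0.518), and it was positive in each of 18 alternatives.

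Kif2a, which takes microtubules apart and prunes neuronal branches, is the only kinesin listed under other roles that was detected in at least 10 cells. Kif2c, in the mitotic list, also takes microtubules apart, so the place of Kif2a depends on how the lists were drawn. Placed in the mitotic list, Kif2a would have been a tested member that did not pass. It was at the lowest value in each of the 5 Mki67-positive progenitors of pool 1 and was detected in 7 of 12 in pool 2, with means of 1.72 and 34.01 TPM. Excitatory neuron-like cells had 19.5 and 21.8 TPM, interneuron-like cells 64.9 and 28.3 TPM. The difference of Mki67-positive progenitors to excitatory neuron-like cells was -0.45 ± 0.70 (adjusted p = 0.8001), opposite in the pools (-1.70 and 0.79). The remaining tested cargo genes (Kif13a, Kif13b, Kif26b, Kifc2, Kifc3 and Klc2) were detected in 12 to 49 cells and differed by -0.46 to 0.21, and none passed. The cargo and axonal kinesins detected in 2 to 6 cells, Kif16b, Kif1c, Kif26a and Klc3, did not pass in the fit without the filter either. Kif6, Kif7, Kif9, Kif19a and Kif27, with other roles, were detected in 1 to 4 cells each and did not pass.

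Interneuron-like cells differed from excitatory neuron-like cells in 0 of the 30 kinesins, and 0 had an unadjusted p below 0.05 in limma. Of all genes, 0.252% passed and 6.02% had an unadjusted p below 0.05. Besides Klc1, the largest value was that of Kif5b, at 62 TPM in either pool against 72.5 and 68.7 TPM, detected in 16 of 26 and 127 of 141 cells (-1.33 ± 0.64, adjusted p = 0.856). Kif3a stood at 142 and 177 TPM in interneuron-like cells, above the excitatory values in both pools, with a difference of 0.92 ± 0.60 (adjusted p = 0.969). Kif4, Kif15 and Kif23 were detected in 0 of 26 interneuron-like cells.

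Genes that work with the cargo kinesins were read from lists of textbook partners. Of 13 cargo adaptors tested, 0 passed between Mki67-positive progenitors and excitatory neuron-like cells in limma, and 2 had an unadjusted p below 0.05, as had 16.3% of all genes. Of 13 dynein and dynactin genes, 1 was higher and 0 were lower, where 2.40% of all genes passed as higher and 0.438% as lower. That gene was Nde1, a dynein regulator known for its part in progenitor division, at 345 against 12.9 TPM (4.89 ± 0.54, adjusted p = 0.00123); against Mki67-negative progenitors it differed by 4.28 ± 0.54 (adjusted p = 0.00467). Against excitatory neuron-like cells Nde1 passed in 16 of 18 alternatives, with adjusted p-values up to 0.0853. Of 7 tested proteins that coat microtubules and steer motors, 3 were lower in Mki67-positive progenitors, as were 0.438% of all genes. They were Dcx (-2.66 ± 0.52, adjusted p = 0.0192), the doublecortin of migrating neurons, Mapt (-2.26 ± 0.52, adjusted p = 0.0394), the axonal protein tau, and Map1b (-1.63 ± 0.39, adjusted p = 0.0442), a protein of growing axons. Map2 did not pass (-1.37 ± 0.70, adjusted p = 0.361). With letter A cells alone, and in cells with 3000 to 5500 detected genes, 0 of the 3 passed, and Map1b (-1.59 ± 0.39, adjusted p = 0.0517) did not pass with the Mki67-positive cells kept among the neurons.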

How the data were processed

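Single-cell RNA was measured in 221 cells of 2 pools, each of 8 medial neocortices. Per the submitters' processing notes the authors used TopHat2 2.0.14, Bowtie2 2.2.6 and Cufflinks 2.2.1 and the build mm10. The deposited values are TPM and have the same sum in each cell; no value is 0, and the lowest value of a cell is shared by its undetected genes. Read counts per cell were not used here, so depth is unknown, and low genes cannot be told from absent ones. How reads of near-identical genes were divided is not given in the sources used here.

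A gene was detected above the lowest value of its cell. Classes were gated by markers (at least 5 of 12 progenitor, 3 of 6 interneuron or 4 of 8 excitatory markers; both neuronal gates also require Mki67 at the lowest value; with at least 4 cells per class and pool), and the 27 gate genes were left out of tests. Values were averaged as log2(TPM + 1), with a pseudocount of 1, per class and pool, since cells are not replicates. Genes detected in at least 10 cells were compared with limma 3.58.1 (R 4.3.3, two-sided, trend and robust variances) over 8 profiles. The step was run on simulated profiles in which each gene had the same spread in every class. That run cannot show how p-values behave for genes that vary in one class and lie near the lowest value in the others. With 2 pools, p-values measure only the spread between pools, estimated once per gene over the 4 classes. Doublets were not called. The pools pair the classes, because classes of a pool come from the same animals; deviations of 2 classes from their means in the same pool correlated across genes by -0.01 to 0.06. Cells were checked for repeats: 0 titles recur, and the highest correlation between 2 cells was 0.734. Older symbols were matched through RefSeq synonyms, and gene positions are from GENCODE (GRCm38).

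Members and gene lists were chosen with earlier results of these data known. Named with values were kinesins that passed in any comparison, a list of 15 kinesins chosen by role, and up to 3 partners per list and direction with the largest difference; Racgap1, Numa1, Map2, Kif3b, Kif3c, Kif14 and Klc4 were added after their values were seen. The 15 alternatives tried cover gates, scale, filters, weights, pairing and replicates, and 4 more were added after seeing the data (letter A cells, cells with 3000 to 5500 genes, no progenitors with 5 or more excitatory markers, and neuronal gates without the Mki67 requirement).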

Additional observations from a re-analysis of the deposited data

Results flagged for a closer look

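Of the 13 ungated cells, 8 had Mki67 above the lowest value, although they entered no comparison. Among these 8, 2 detected at least 4 mitotic kinesins, and the cell with most detected 10. These 2 cells were both from pool 1, with 9 and 10 mitotic kinesins and Mki67 at 66.9 and 91.9 TPM. They detected 6 and 4 progenitor markers beside 8 and 6 excitatory neuron markers. Having no more progenitor than excitatory markers, they were outside the progenitor gate, and Mki67 alone kept them out of the excitatory neuron-like class. With these 8 cells in that class, 10 kinesins passed between Mki67-positive progenitors and excitatory neuron-like cells, and 283 genes in all. The other 6 cells detected 0 to 2 mitotic kinesins, one of them at 143 TPM of Mki67. The 5 ungated cells without Mki67 detected 0 mitotic kinesins.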

How the results depend on the processing

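In every alternative in which they were tested, the kinesins that passed kept their direction. The number of kinesins that passed in Mki67-positive progenitors against excitatory neuron-like cells was 10, and became 2 with the log2 of the mean TPM, 6 without the filter on low values, 3 with a filter at 30 cells (fewer kinesins tested), 2 with letter A cells only, 0 with cells of 3000 to 5500 genes and 6 without progenitors with 5 or more excitatory markers. In that last setting Mki67-positive progenitors had 1 profile, of 7 pool 2 cells, assumed to vary like the other classes. All genes passing there went from 304 to 531 (Mki67 at least 10 TPM), 154 (log2 of the mean), 146 (no filter), 511 (weights by cells), 70 (letter A), 37 (3000 to 5500 genes) and 152 (fewer excitatory markers).

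Against Mki67-negative progenitors the 7 kinesins became 3 with at least 6 progenitor markers, 0 with the log2 of the mean and 3 without the filter. They became 2 with a filter at 30 cells (fewer kinesins tested), 3 without trend and robust variances, 2 with letter A and 0 with 3000 to 5500 genes. All genes passing became 52 (6 markers), 175 (Mki67 at least 10 TPM), 27 (log2 of the mean), 46 (no filter), 43 (30 cells), 58 (no trend), 27 (letter A), 0 (3000 to 5500 genes) and 59 (fewer excitatory markers).

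Between Mki67-negative progenitors and excitatory neuron-like cells the 6 genes became 11 (6 markers), 1 (Mki67 at least 10 TPM), 1 (Top2a in place of Mki67), 28 (log2 of the mean), 1 (no filter), 16 (30 cells), 91 (pool and letter as units), 275 (weights), 1 (no trend), 11 (pool as a replicate block), 3 (letter A), 2 (3000 to 5500 genes) and 25 (fewer excitatory markers). Between interneuron-like and excitatory neuron-like cells the 27 genes became 17 (4 progenitor markers), 3 (log2 of the mean), 9 (no filter), 57 (pool and letter), 211 (weights), 7 (no trend), 70 (letter A), 14 (3000 to 5500 genes) and 1 (fewer excitatory markers). The cause of these changes was not tested.

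Keeping Mki67-positive cells in the neuronal classes left the kinesins that passed at 10, 7, 0 and 0 in the 4 comparisons. With the pool as a replicate block, the kinesins that passed were 10, 10, 0 and 0 in the 4 comparisons, and the block moved no other count by over 1.5 times except the 11 genes above. Without pool 1 or pool 2 the difference for Kif22 was 4.54 or 5.33, and for Kif23 1.496 or 4.07. Kif3a, Kif2a and Kif21a, which did not pass, changed sign between Mki67-positive progenitors and excitatory neuron-like cells. Kif3a was 0.14 with at least 6 progenitor markers and 0.083 with values over the lowest value of the cell. Kif2a was 0.0069 with weights and 0.61 with fewer excitatory markers. Kif21a was 0.088 with weights, 0.019 in cells of 3000 to 5500 genes and 0.47 with fewer excitatory markers. Depth per cell is unknown, and 2 pools limit the precision of every difference.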
